A study of Mus musculus with 21 samples.

Results

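Bnip3 and its partners of the BCL2 survival family were followed in B16-F10 cells, a pigmented mouse melanoma line derived from the C57BL/6J strain, through low oxygen and cobalt chloride. The 6 genes considered were Bnip3, Bnip3l, Bcl2, Bcl2l1, Mcl1 and Bid, taken by symbol from the U74Av2 annotation and kept where a probe set names 1 gene. By this rule 5 of the 6 genes had a value, on 8 probe sets, out of 8251 genes tested. Bnip3l has no value here because its probe set is annotated to several genes.

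The BCL2 family decides whether the outer mitochondrial membrane stays intact. Bcl2, Bcl2l1 (whose long form is BCL-XL) and Mcl1 encode guardians that hold the pore-forming members in check, and Bid encodes a BH3-only protein that is cut by caspase 8 and then carries the death-receptor signal to mitochondria. Bnip3 and its close relative Bnip3l encode proteins of the outer membrane that bind LC3-type proteins and hand mitochondria to autophagy; Bnip3 is a textbook target of the hypoxia-inducible factor HIF-1, which binds DNA at the core letters ACGTG or GCGTG, and cobalt ions stabilise HIF by blocking its prolyl hydroxylases.

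The 21 samples form 9 groups, and the labels call the samples of a group biological replicas. Chamber hypoxia (3 samples, 1% oxygen for 24 h in a sealed chamber) was set against 2 controls at 21% oxygen. Hypoxia in a flow-regulated incubator, also 1% oxygen for 24 h, was run as experiment 1 (3 samples, 2 controls at 21% oxygen) and experiment 2 (3 samples, 2 controls at 21% oxygen). Experiment 3 held 2 samples given 100 µM CoCl2 for 24 h and 2 given 200 µM CoCl2 for 24 h, against 2 controls at 21% oxygen. The labels give no duration for the controls and no oxygen level for the CoCl2 samples, and the controls of the chamber set are tied to it because neither carries an experiment number. All groups are cultures of this 1 established line.

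The promoters of the members called in all 5 treated groups, Bnip3 (higher) and Bid (lower), are shown because they differ in the HIF core letters. Each runs 5′ to 3′ along the gene, from 250 bases before the start to 50 after it, and the capitals mark ACGTG or GCGTG on either strand (CACGT and CACGC when read on the other strand). Both come from RefSeq on GRCm38.p6, minus strand, at chr7:138909457-138909756 for Bnip3 and chr6:120916775-120917074 for Bid.
Bnip3: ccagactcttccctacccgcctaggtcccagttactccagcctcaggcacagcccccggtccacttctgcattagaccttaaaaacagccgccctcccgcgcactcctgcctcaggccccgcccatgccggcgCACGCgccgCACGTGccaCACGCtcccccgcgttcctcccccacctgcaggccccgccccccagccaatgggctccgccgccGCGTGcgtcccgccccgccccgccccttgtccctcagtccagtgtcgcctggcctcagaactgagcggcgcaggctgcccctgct
Bid: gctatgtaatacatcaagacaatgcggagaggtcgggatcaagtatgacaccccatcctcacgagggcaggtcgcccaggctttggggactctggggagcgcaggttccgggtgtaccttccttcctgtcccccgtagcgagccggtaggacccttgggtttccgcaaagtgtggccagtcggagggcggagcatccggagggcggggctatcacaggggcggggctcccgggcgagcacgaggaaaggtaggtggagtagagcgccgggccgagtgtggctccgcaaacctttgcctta
The Bnip3 window holds 2 matches to ACGTG, which overlap in the palindrome CACGTG at -108 and -107 from the start, and 3 matches to GCGTG, at -117, -99 and -35. The windows of Bid, Bcl2 and Mcl1 hold 0 matches to either, and among the 3 windows of Bcl2l1 the counts were 0, 1 and 1, all GCGTG. Of 32851 mouse windows of 300 bases, 19.6% hold ACGTG, 32.4% hold GCGTG and 43.8% hold either, so a match is common and is not evidence of binding.

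Values are log2 signals after RMA, an Affymetrix summary of the probes of a set that places arrays on 1 scale, and a difference of 1 is a 2-fold change. The number of arrays limits the precision. Markers of the melanocyte lineage (8 tested) had a median level at the 87.5th percentile of genes, whereas leukocyte, fibroblast, endothelial and epithelial markers lay between the 17.2nd and 27.3rd. All 8 melanocyte markers were called lower at both CoCl2 doses, as were 20.7% of all genes at 100 µM and 22.3% at 200 µM. Their mean level was 7.57 to 7.79 at 100 µM and 6.43 to 6.57 at 200 µM, against 9.16 to 9.35 in the experiment 3 controls. In bulk RNA, fewer cells of a type and less RNA per cell cannot be told apart. Of 13 leukocyte markers 4 were called higher and 0 lower at each CoCl2 dose. Of all genes 17.6% were called higher and 20.7% lower at 100 µM, and 19.7% higher and 22.3% lower at 200 µM. The leukocyte markers had a mean level of 4.94 to 5.10 at 100 µM and 5.08 to 5.10 at 200 µM, against 4.49 to 4.57 in the experiment 3 controls. Among them the lysosomal protein gene Cd68 rose by 3.98 at 200 µM (adjusted p = 1.3e-11), and a further probe set of it changed by 0.09. Also called higher there were Cd74 (0.62), Csf1r (0.40, with a further set at 0.06) and Cd8a (0.38). At 100 µM Cd68 (2.50), Cd74 (0.92), Cd3e (0.49) and Cd4 (0.42) were called. Ptprc, the gene of the pan-leukocyte antigen CD45, was not called at either dose and lay between 2.85 and 3.47 over the 21 samples. Its further sets changed by 0.32 and 0.08 at 200 µM. Of 10 epithelial markers 4 were also called higher and 0 lower at each dose. Of 11 fibroblast markers 1 was higher and 1 lower at 100 µM, and 3 were higher and 1 lower at 200 µM. Of 10 endothelial markers 1 was higher and 1 lower at 100 µM, and 0 were higher and 1 lower at 200 µM. The part of these shifts in the CoCl2 changes was not tested. The 3′ probe set of Actb was set against its 5′ set to measure RNA quality. It was higher by 0.50 to 2.36 in experiment 3 and by 0.15 to 0.50 in the hypoxia sets. This gap widens with degraded RNA. Inside experiment 3 both 100 µM samples (2.36, 2.16) had a wider gap than both controls (1.41, 1.62). The 200 µM samples had 1.47 and 0.50. Dose and RNA quality are thus partly mixed. With the gap as a covariate 154 genes were called between the doses, against 1376 without it. At 100 µM 1727 were called, against 1456 higher and 1709 lower without it. At 200 µM the count was 3405, against 1628 and 1840. What RNA quality adds to these changes was not tested.

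Low oxygen raised Bnip3 in each of its 3 sets and lowered Bid in each, while the guardians split: Bcl2l1 rose in each set, Bcl2 rose in 2, and Mcl1 fell in 2. CoCl2 also raised Bnip3 and lowered Bid and Mcl1, at both doses, but neither Bcl2 nor Bcl2l1 passed the test there on the probe set that represents the gene (the one with the highest mean), while a further Bcl2 set fell. Calls are at a Benjamini-Hochberg adjusted p under 0.05 in limma, adjusted over all genes. In chamber hypoxia 3 of the 5 genes were called higher, as were 7.96% of all genes, and 2 lower, as were 15.1%. In experiment 1 the counts were again 3 higher and 2 lower (7.57% and 10.7% of all genes), and in experiment 2 they were 2 higher and 1 lower (7.55% and 7.79% of all genes). For the mean of the 3 hypoxia sets, weighted equally, 3 were higher and 2 lower (12.6% and 19.5% of all genes). At 100 µM CoCl2 1 was higher and 2 lower (17.6% and 20.7% of all genes), with the same counts at 200 µM (19.7% and 22.3% of all genes). The median change over the 5 genes was 0.38 for the hypoxia mean, against 0.01 over all genes. The median over the 5 genes was 0.05 at 100 µM and -0.18 at 200 µM, against 0.10 and 0.11 over all genes. Without chamber control 1 or chamber control 2 the chamber count of 5 called genes was 3.

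**Figure D1:**
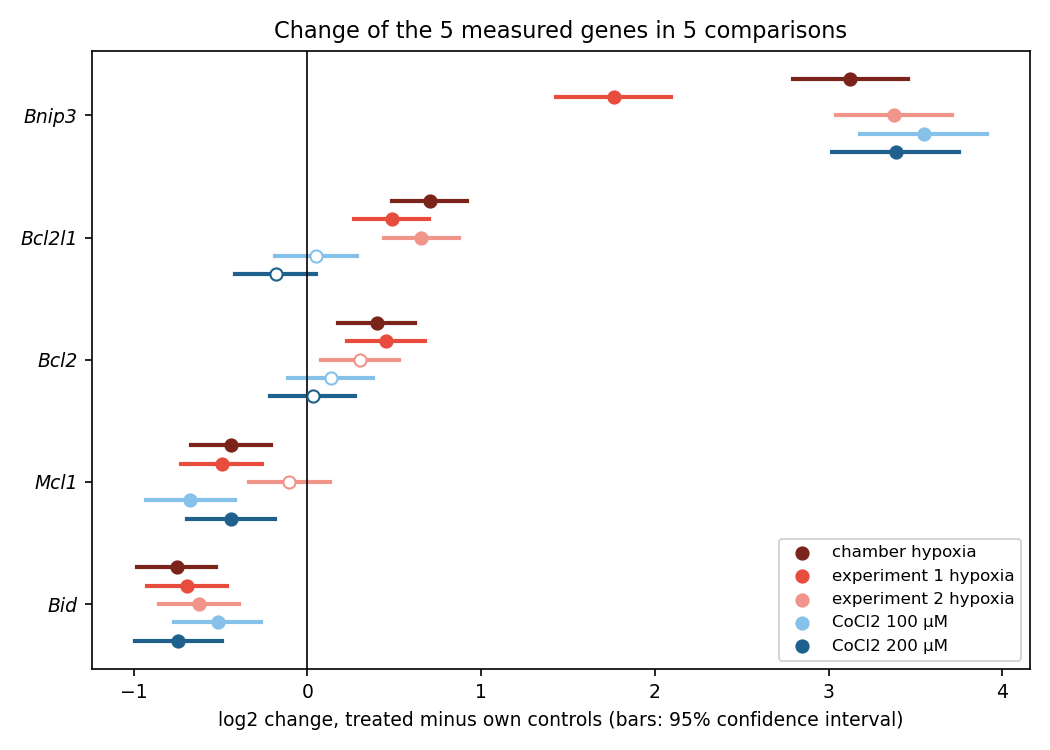
Log2 change (horizontal axis, treated minus own controls) of the 5 measured genes in chamber hypoxia, experiments 1 and 2, and CoCl2 at 100 and 200 µM. Points are estimates from the model, bars are 95% confidence intervals, and filled points passed the test. Bnip3 lies between 1.76 and 3.55 and Bid between -0.75 and -0.52, while Bcl2l1 and Bcl2 lie near 0 with CoCl2.

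Bnip3 had the largest change of the 5 genes in every comparison with controls. In chamber hypoxia its log2 levels were 8.51, 8.52 and 8.85, against 5.66 and 5.34 in the chamber controls. In experiment 1 hypoxia they were 8.07, 7.90 and 7.74, against 6.21 and 6.07 in its controls. In experiment 2 hypoxia they were 8.52, 8.73 and 8.77, against 5.17 and 5.42 in its controls. All 9 hypoxia samples lay above all 6 of these controls. At 100 µM CoCl2 the levels were 8.75 and 9.32 and at 200 µM 8.91 and 8.84, against 5.65 and 5.33 in the experiment 3 controls, again with no overlap. Here and below, overlap only describes the samples. With 2 or 3 samples in a group its absence is easily met, and the share of all genes without overlap was not counted.

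The change of Bnip3 was 3.13 ± 0.16 in the chamber (SE; 8.73-fold, adjusted p = 9.4e-12), 1.76 ± 0.16 in experiment 1 (3.39-fold, adjusted p = 6.1e-08) and 3.38 ± 0.16 in experiment 2 (10.4-fold, adjusted p = 2.0e-12). Over the 3 hypoxia sets the mean change was 2.76 ± 0.09 (6.75-fold, adjusted p = 1.1e-15). This ranks the gene 9 from the top of 8251 genes for the hypoxia mean, 5 in the chamber, 38 in experiment 1 and 6 in experiment 2. At 100 µM CoCl2 the change was 3.55 ± 0.18 (11.7-fold, adjusted p = 1.6e-12) and at 200 µM 3.39 ± 0.18 (10.4-fold, adjusted p = 1.7e-12). The ranks there were 4 and 11 from the top. Both doses share their 2 controls. With the Actb 3′ minus 5′ signal as a covariate the changes at the doses were 3.70 and 3.28.

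**Figure D2:**
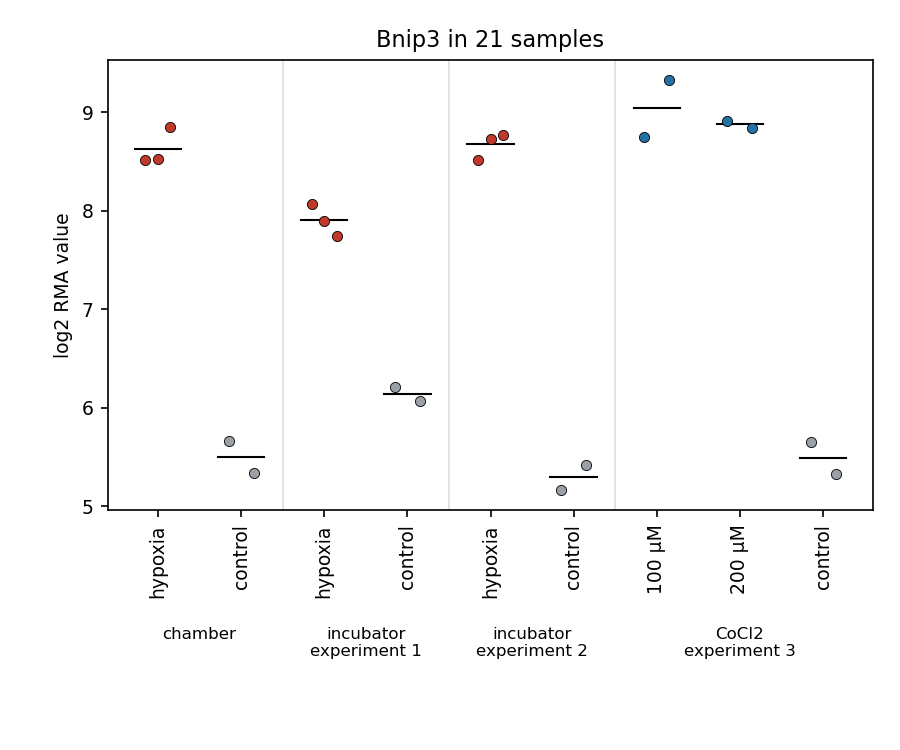
Log2 RMA level of Bnip3 (vertical axis) in each of the 21 samples, by group along the horizontal axis. Points are samples (red hypoxia, blue CoCl2, grey control) and lines are group means. The 3 experiment 1 hypoxia samples, from 7.74 to 8.07, lie below every other treated sample, and the 2 experiment 1 controls, 6.21 and 6.07, lie above every other control.

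In order of mean level, Bnip3 was highest at 100 µM CoCl2 (9.04 ± 0.40, SD, n = 2), then 200 µM CoCl2 (8.87 ± 0.05, n = 2), experiment 2 hypoxia (8.67 ± 0.14, n = 3) and chamber hypoxia (8.63 ± 0.19, n = 3). Experiment 1 hypoxia followed at 7.90 ± 0.16 (n = 3). The controls of experiment 1 averaged 6.14 ± 0.10, those of the chamber 5.50 ± 0.23, those of experiment 3 5.49 ± 0.23 and those of experiment 2 5.29 ± 0.18 (SD, n = 2 each). The samples of the CoCl2 doses overlapped, as did those of experiment 2 and chamber hypoxia, and the controls of the chamber set, experiment 3 and experiment 2. Experiment 1 stood apart from its neighbours in both arms.

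The weaker rise in experiment 1 was known when the gene was chosen, so it is described without a test. Its change in experiment 1 was smaller than in experiment 2, with a difference of -1.62 on the log2 scale. Both arms took part: the experiment 1 hypoxia samples were lower than those of experiment 2 by a mean difference of -0.77, and the experiment 1 controls were higher than those of experiment 2 by 0.84. The range of the difference over leaving out each of the 10 samples was -1.74 to -1.49. Against the mean of all 8 controls the rise would be 2.29 in experiment 1 and 3.07 in experiment 2, and the difference then equals that of the hypoxia samples, -0.77. Of the 4 further measured members 0 were called in limma for their difference in change between these experiments, where 0.327% of all genes were called, and 1 had an unadjusted p under 0.05 (Mcl1). The cause of the gap was not tested, and culture, oxygen supply and array processing cannot be told apart from the experiment.

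As a description, the gap of Bnip3 was set beside the differences of other HIF targets. Of 37 measured HIF targets on a list of known ones, 28 were called higher for the hypoxia mean and 0 lower (12.6% and 19.5% of all genes). The median change over the 37 genes was 1.51, against 0.01 over all genes. Of these 28, 10 had a larger change in experiment 1 and 18 a larger change in experiment 2, with a median difference of -0.08 and a range of -1.36 to 0.47. The difference of none of the 28 was as low as that of Bnip3. Because Bnip3 was chosen with its gap known, its place below them follows in part from that choice. Whether the gap is particular to Bnip3 was not tested. In the hypoxia samples none was as far below experiment 2 as Bnip3, with a median of 0.05 and 4 genes called higher in experiment 1 (6.28% of all genes called in either direction). In the controls only Ddit4 was further above experiment 2 than Bnip3, with a median of 0.12 over the 28 (0.291% of all genes called).

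Ddit4, which encodes an inhibitor of mTORC1 signalling, came nearest to Bnip3 in the size of the gap, and all of its gap lay in the controls. Its levels were 9.90, 9.92 and 9.75 in experiment 1 hypoxia, against 8.51 and 8.86 in its controls. They were 9.89, 9.73 and 9.86 in experiment 2 hypoxia, against 7.32 and 7.27 in its controls. The difference in change was -1.36 ± 0.22 (adjusted p = 0.0043), made of 0.03 between the hypoxia samples and 1.39 between the controls. The atypical cyclin gene Ccng2 (-0.75, adjusted p = 0.18), Ndrg1 (-0.55, adjusted p = 0.30) and the pyruvate dehydrogenase kinase gene Pdk1 (-0.40, adjusted p = 0.54) had the next lowest differences. At the other end were the glucose transporter gene Slc2a1 (0.47, adjusted p = 0.37), the vascular growth factor gene Vegfa (0.45, adjusted p = 0.62), the haem oxygenase gene Hmox1 (0.30) and the placental growth factor gene Pgf (0.27). Of the 28 differences in change, only that of Ddit4 passed the test. As with Bnip3, the gap of Ccng2 lay in both arms, with 0.39 between the controls and -0.36 between the hypoxia samples. These parts were 0.53 and -0.02 for Ndrg1, and 0.25 and -0.15 for Pdk1.

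**Figure D3:**
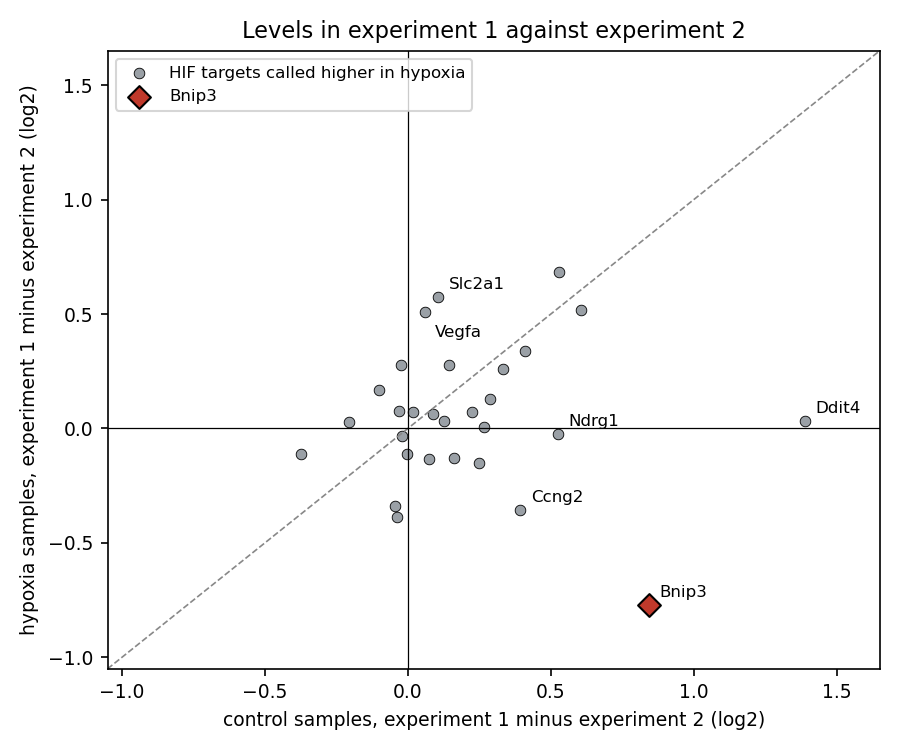
Difference between experiments 1 and 2 (experiment 1 minus experiment 2, log2) in the hypoxia samples (vertical axis) and in the controls (horizontal axis) for Bnip3 and the 28 HIF targets called higher for the hypoxia mean. Each point is 1 gene, and on the dashed line the change is equal in both experiments. Bnip3 lies at 0.84 and -0.77, Ddit4 at 1.39 and 0.03.

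The rise of Bnip3 with CoCl2 (mean of both doses) exceeded the mean rise of the hypoxia sets by 0.71, a value given with no test because it contains the weaker rise of experiment 1. With the hypoxia mean taken over the chamber set and experiment 2 alone the difference was 0.21. This too is given with no test, because experiment 1 was left out with its weaker rise known. Between the doses the change differed by -0.16 (200 minus 100 µM; 95% confidence interval -0.53 to 0.20, adjusted p = 0.63). Between chamber and incubator hypoxia the rise differed by 0.56, also given with no test because the incubator mean contains experiment 1. The chamber rise of 3.13 lay between the 1.76 of experiment 1 and the 3.38 of experiment 2.

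The genes most like Bnip3 were sought by the root mean square difference over the 5 changes, as a description. Pkp2, which encodes a desmosome plakophilin, was nearest at 0.669, with changes of 2.43 in the chamber, 3.00 in experiment 1, 2.98 in experiment 2, 3.35 at 100 µM and 3.54 at 200 µM CoCl2. Its representative set is of a type that can match a sequence family. Of its 2 further sets, 1 changed by between 2.21 and 3.27 and the other changed by between 0.02 and 0.60. Next came Ccng2 (0.742), the MHC class I gene H2-K1 (0.863), the immediate early gene Ier3 (0.923) and Slc2a1 (0.925). The representative set of H2-K1, like that of Pkp2, is of a type that can match a sequence family. The 2 further sets of H2-K1 changed by between 0.52 and 1.36 and by between -0.12 and 0.37. Of these 5 genes, H2-K1 had the lowest of its 5 changes in experiment 1 (1.48), as Bnip3 did, and the other 4 had theirs elsewhere. Among the 3 hypoxia sets alone, Ccng2 also changed least in experiment 1 (2.83, against 3.14 in the chamber and 3.58 in experiment 2).

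Bcl2l1, the BCL-XL gene, rose in all 3 hypoxia sets and did not pass with CoCl2 on its representative probe set (99027_at). On that set the levels were 7.83, 7.76 and 7.78 in chamber hypoxia, against 7.16 and 7.02 in the chamber controls. They were 7.39, 7.40 and 7.49 in experiment 1 hypoxia, against 7.01 and 6.87 in its controls, and 7.80, 7.73 and 7.46 in experiment 2 hypoxia, against 6.99 and 7.01 in its controls. All 9 hypoxia samples lay above all 8 controls of the study. At 100 µM CoCl2 the levels were 6.93 and 7.03 and at 200 µM 6.75 and 6.74, against 6.94 and 6.92 in the experiment 3 controls. The 200 µM samples were the lowest 2 of the 21, and the 100 µM samples overlapped the controls.

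The change of Bcl2l1 was 0.70 in the chamber (adjusted p = 3.2e-05), 0.49 in experiment 1 (adjusted p = 0.0017) and 0.66 in experiment 2 (adjusted p = 9.0e-05). The hypoxia mean was 0.62 ± 0.06 (1.53-fold, adjusted p = 3.8e-08). With CoCl2 it was 0.05 at 100 µM (adjusted p = 0.73) and -0.18 at 200 µM (adjusted p = 0.20). The CoCl2 change was lower than the hypoxia change by a difference of -0.68 ± 0.12 (adjusted p = 1.2e-04). Without experiment 1 in the hypoxia mean this was -0.75 (adjusted p = 1.0e-04). The second probe set (99026_at), at the 27.1st percentile of mean level, did not follow: it changed by 0.06 for the hypoxia mean (adjusted p = 0.65), 0.31 at 100 µM (adjusted p = 0.087) and 0.32 at 200 µM (adjusted p = 0.079). Over both doses this second set was called higher, by 0.32 (adjusted p = 0.043). With the mean of both sets per gene, the difference between CoCl2 and hypoxia was -0.21 (adjusted p = 0.15).

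Bcl2, the founding guardian of the family, rose by less. On the representative set (98870_at) the levels were 7.90, 7.81 and 7.76 in chamber hypoxia, against 7.41 and 7.44 in the chamber controls. They were 7.93, 7.88 and 8.03 in experiment 1 hypoxia, against 7.48 and 7.50 in its controls, and 7.89, 8.01 and 7.96 in experiment 2 hypoxia, against 7.58 and 7.72 in its controls. No hypoxia sample overlapped its own controls. With CoCl2 the levels were 7.70 and 7.57 at 100 µM and 7.69 and 7.37 at 200 µM, against 7.40 and 7.60 in the experiment 3 controls, and the 3 groups overlapped.

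The change of Bcl2 was 0.40 in the chamber (adjusted p = 0.0095), 0.45 in experiment 1 (adjusted p = 0.0042) and 0.30 in experiment 2 (adjusted p = 0.064). The experiment 2 change passed in 6 of 11 alternative settings, with values of 0.30 to 0.78 (adjusted p = 8.8e-06 to 0.049), and both further probe sets were called there. The hypoxia mean was 0.38 ± 0.06 (1.31-fold, adjusted p = 3.7e-05). Without chamber control 1 the chamber change was 0.38 (adjusted p = 0.084), and without chamber control 2 it was 0.41 (adjusted p = 0.066). With CoCl2 it was 0.13 at 100 µM (adjusted p = 0.37) and 0.03 at 200 µM (adjusted p = 0.85). The difference between CoCl2 and hypoxia was -0.30 (adjusted p = 0.067). With each of the 21 samples left out in turn it ran from -0.41 to -0.20. It passed in 2 of these, at -0.38 without 200 µM sample 1 and at -0.34 without 100 µM sample 1. Of 10 other alternative settings it passed in 3 and failed in the rest. Those 3 were the mean of the 3 probe sets (-0.84, adjusted p = 7.0e-06), the Actb covariate (-0.35, adjusted p = 0.022) and the filter on genes of low level (-0.30, adjusted p = 0.048).

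The other probe sets of Bcl2 also rose in hypoxia, by different amounts. In a fit over all 10833 single-gene probe sets, the set 98869_g_at changed by 0.45, 0.78 and 0.53 in the chamber and experiments 1 and 2, with a mean of 0.59 ± 0.07 (adjusted p = 1.6e-06; 28.0% of all probe sets called). Its change with CoCl2 was 0.05 at 100 µM and 0.09 at 200 µM, lower than in hypoxia by a difference of -0.52 (adjusted p = 0.0097). The set 98868_at, at the 12.9th percentile of mean level, gave 3.51, 3.75 and 3.47 in chamber hypoxia, against 3.02 and 3.15 in the chamber controls. It gave 4.47, 4.30 and 4.36 in experiment 1 hypoxia, against 2.70 and 3.28 in its controls, and 4.49, 4.55 and 4.40 in experiment 2 hypoxia, against 2.78 and 3.18 in its controls. The hypoxia samples of both incubator experiments were the highest 6 of the 21.

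On 98868_at the mean hypoxia change of Bcl2 was 1.13 ± 0.09 (adjusted p = 2.0e-09), with 0.49 in the chamber, 1.39 in experiment 1 and 1.50 in experiment 2. The chamber change was lower than the incubator mean by a difference of -0.95 ± 0.18 (adjusted p = 0.013; 1.20% of all probe sets called). With CoCl2 this set fell, by 0.52 at 100 µM (adjusted p = 0.019) and 0.64 at 200 µM (adjusted p = 0.0039). The difference between CoCl2 and hypoxia was -1.71 ± 0.17 (adjusted p = 1.6e-07; 21.8% of all probe sets called). Its CoCl2 levels were 2.91 and 2.88 at 100 µM and 2.92 and 2.62 at 200 µM, against 3.39 and 3.45 in the experiment 3 controls, which were themselves above the 6 controls of the hypoxia sets. Whether a level this low is above background was not tested, and which transcript each set reads is not annotated in the sources used here.

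**Figure D4:**
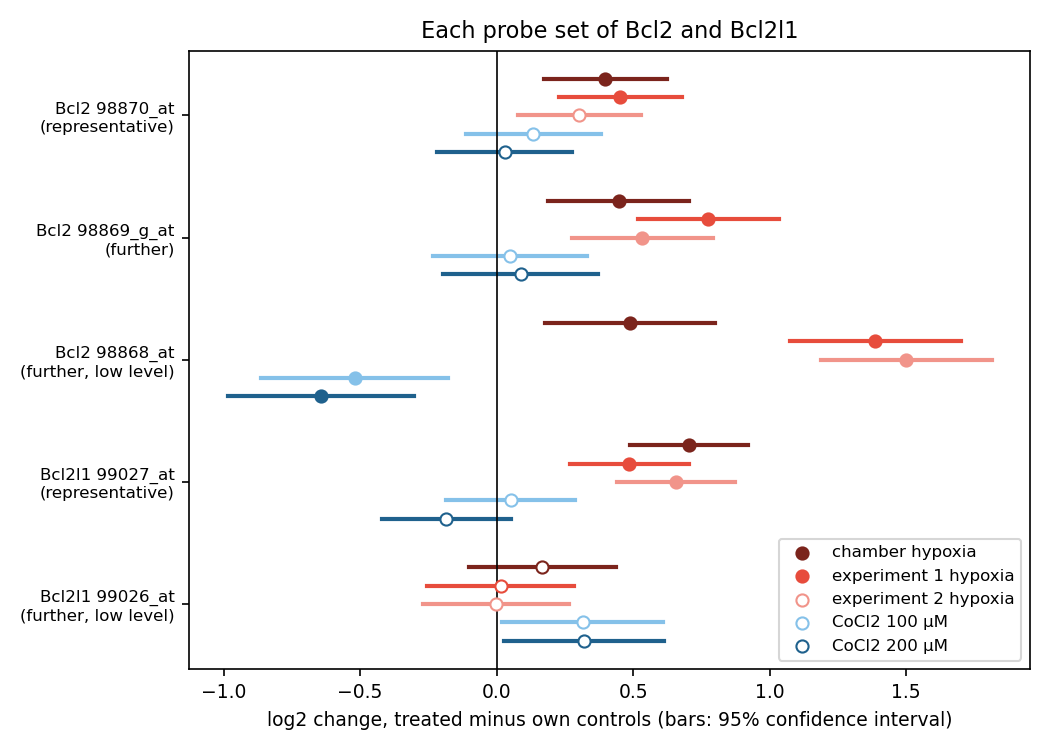
Log2 change (horizontal axis, treated minus own controls) of each single-gene probe set of Bcl2 and Bcl2l1 in the 5 treated groups. Points are model estimates, bars are 95% confidence intervals, and filled points passed the test over all probe sets. The 3 Bcl2 sets share their direction in hypoxia, from 0.30 to 1.50, while the 2 Bcl2l1 sets do not share the rise of 0.49 to 0.70.

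Mcl1, a guardian whose protein turns over fast, went the other way. Its levels were 6.10, 6.19 and 6.40 in chamber hypoxia, against 6.68 and 6.67 in the chamber controls. They were 5.86, 5.80 and 5.69 in experiment 1 hypoxia, against 6.22 and 6.34 in its controls, and neither of these sets overlapped its controls. In experiment 2 hypoxia they were 6.41, 6.37 and 6.24, against 6.54 and 6.35 in its controls, and these overlapped. With CoCl2 they were 6.10 and 6.27 at 100 µM and 6.33 and 6.51 at 200 µM, against 6.91 and 6.81 in the experiment 3 controls, with no overlap.

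The change of Mcl1 was -0.44 in the chamber (adjusted p = 0.0060), -0.49 in experiment 1 (adjusted p = 0.0028) and -0.10 in experiment 2 (adjusted p = 0.66), with a hypoxia mean of -0.35 ± 0.06 (adjusted p = 1.8e-04). With CoCl2 it was -0.67 at 100 µM (adjusted p = 1.8e-04) and -0.44 at 200 µM (adjusted p = 0.0062). Several of these calls were lost when a group of 2 was cut to 1 sample, which also lowers the precision. The chamber call was lost without chamber control 1 (-0.44, adjusted p = 0.055) or control 2 (-0.45, adjusted p = 0.056), and that of experiment 1 without its control 2 (-0.43, adjusted p = 0.060). The 200 µM call was lost without experiment 3 control 1 (-0.39, adjusted p = 0.062) or 200 µM sample 1 (-0.35, adjusted p = 0.064). The experiment 3 controls had the highest Mcl1 level of the 9 groups, 6.86 ± 0.07 (SD, n = 2), and against the mean of all 8 controls the change was -0.38 at 100 µM (adjusted p = 0.0029) and -0.15 at 200 µM (adjusted p = 0.23).

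Mcl1 also stood low in experiment 1. Its experiment 1 hypoxia samples were below those of experiment 2 by a difference of -0.55 ± 0.10 (adjusted p = 0.0017), while the controls differed by -0.16 (adjusted p = 0.85). The difference between the changes in experiments 1 and 2 was -0.39 (adjusted p = 0.47). Bcl2l1 (-0.17, adjusted p = 0.87), Bid (-0.07, adjusted p = 0.97) and Bcl2 (0.15, adjusted p = 0.91) gave smaller differences.

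Bid fell in every treated group. Its levels were 4.46, 4.59 and 4.54 in chamber hypoxia, against 5.30 and 5.26 in the chamber controls. They were 4.34, 4.03 and 4.27 in experiment 1 hypoxia, against 4.89 and 4.92 in its controls, and 4.42, 4.37 and 4.46 in experiment 2 hypoxia, against 5.01 and 5.07 in its controls. All 9 hypoxia samples lay below all 8 controls. At 100 µM CoCl2 they were 4.70 and 5.01 and at 200 µM 4.55 and 4.70, against 5.33 and 5.41 in the experiment 3 controls, again with no overlap.

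The change of Bid was -0.75 in the chamber (adjusted p = 3.0e-05), -0.69 in experiment 1 (adjusted p = 9.7e-05) and -0.62 in experiment 2 (adjusted p = 3.1e-04), a mean of -0.69 ± 0.06 (1.61-fold lower, adjusted p = 1.7e-08). With CoCl2 it was -0.52 ± 0.12 at 100 µM (adjusted p = 0.0020) and -0.74 ± 0.12 at 200 µM (adjusted p = 3.4e-05). The 100 µM call was lost without 100 µM sample 1 (-0.36, adjusted p = 0.053), with the Actb covariate (-0.40, adjusted p = 0.094) and with only the experiment 3 samples (-0.52, adjusted p = 0.083). The difference between CoCl2 and hypoxia was 0.06 (95% confidence interval -0.19 to 0.31, adjusted p = 0.73). The mean level of Bid lay at the 28.7th percentile of all genes tested.

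**Figure D5:**
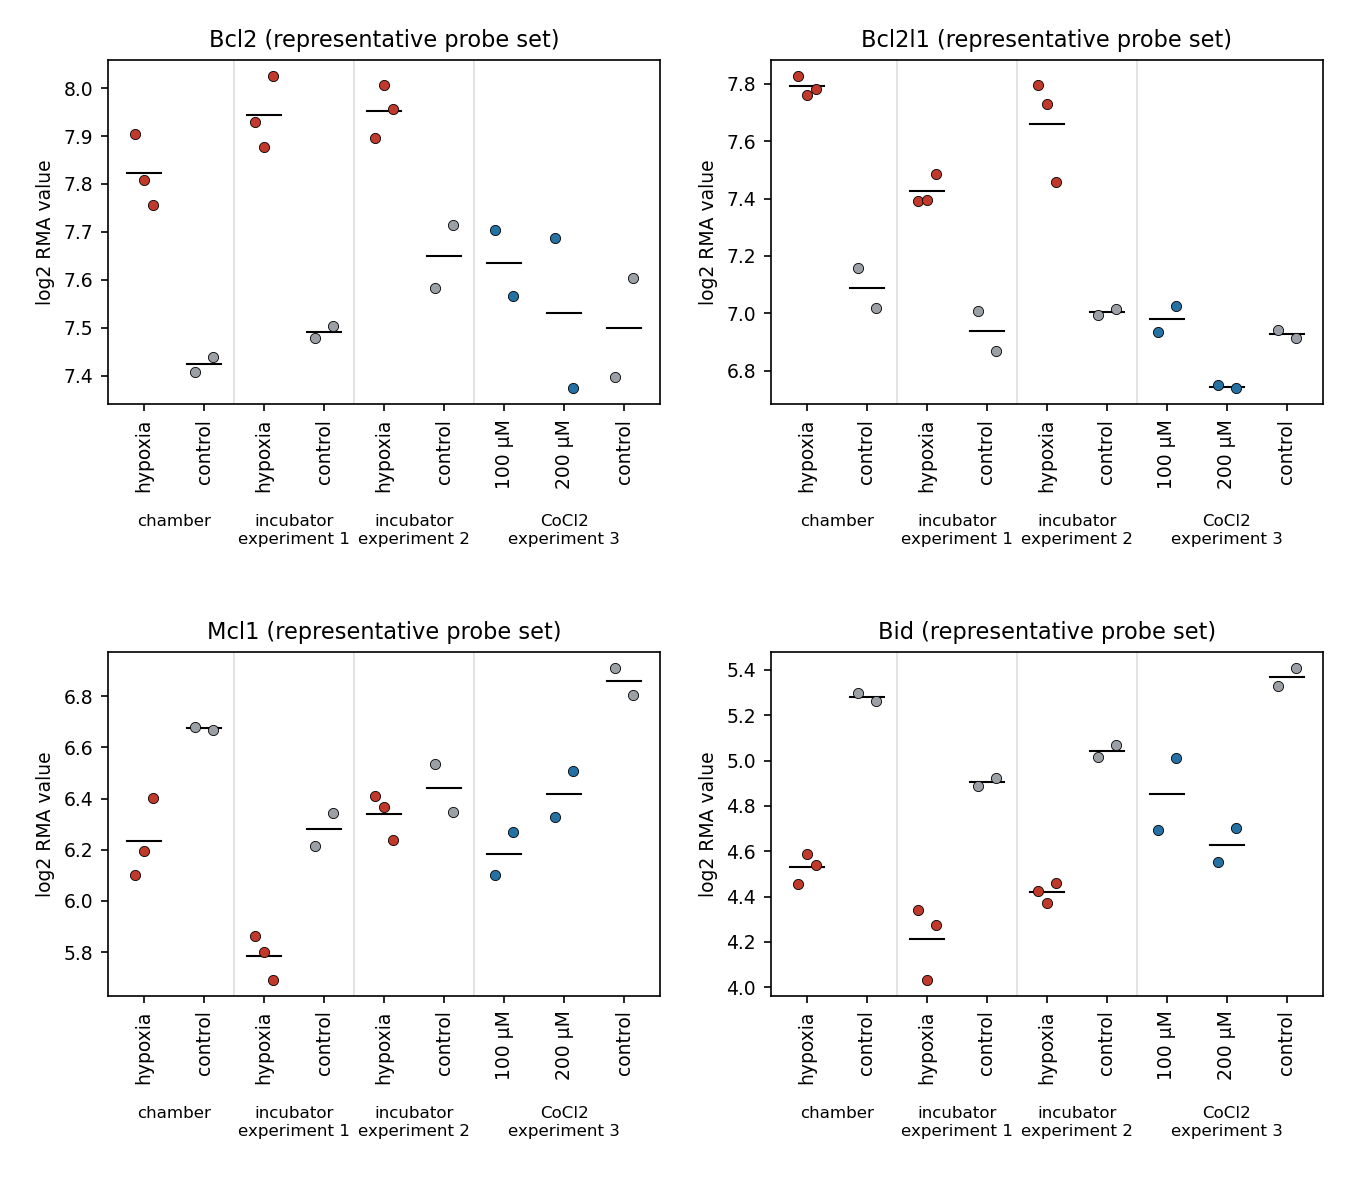
Log2 RMA level (vertical axes, scaled separately) of Bcl2, Bcl2l1, Mcl1 and Bid on their representative probe sets in each of the 21 samples, by group along the horizontal axis. Points are samples (red hypoxia, blue CoCl2, grey control) and lines are group means. Hypoxia samples lie above their own controls for Bcl2 and Bcl2l1 and below them for Bid in every set, and Mcl1 overlaps its controls in experiment 2.

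Of the 5 members, 0 were called in limma for the difference between the CoCl2 doses (16.7% of all genes called) and 0 for chamber against incubator hypoxia (2.16% of all genes called). At an unadjusted p under 0.05 these counts were 0 for the doses and 1 for the chamber. That 1 is Bnip3, whose incubator mean contains the weaker rise of experiment 1. Between the doses (200 minus 100 µM) the 95% confidence interval was -0.35 to 0.14 for Bcl2, -0.47 to 0.00064 for Bcl2l1, -0.02 to 0.49 for Mcl1 and -0.48 to 0.03 for Bid. For Bid the dose difference passed without 100 µM sample 1 (-0.38, adjusted p = 0.048). In the difference between CoCl2 and hypoxia, 1 of the 4 members other than Bnip3 was called (Bcl2l1, lower), where 25.4% of all genes were called.

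Further genes of the BCL2 family were mostly uncalled. Of 22 further family genes on a fixed list 11 were tested, and for the hypoxia mean 3 were called higher and 0 lower (12.6% and 19.5% of all genes; median 0.04, against 0.01 over all genes). Bnip1, an ER protein gene of the same interaction family, rose by 0.87 ± 0.08 (adjusted p = 8.2e-09; a further probe set changed by 0.06), the pore-former gene Bok by 0.30 and Bnip2 by 0.21 (a further set changed by -0.30). At 200 µM CoCl2 2 were called higher and 0 lower (19.7% and 22.3% of all genes; median 0.16, against 0.11), Bnip2 by 0.49 (a further set by -1.37) and Bnip1 by 0.46. The BH3-only genes Bad (-0.04, adjusted p = 0.75), Bik (0.04), Hrk (-0.04) and Bcl2l11, the Bim gene (-0.04, adjusted p = 0.71), did not pass for the hypoxia mean, nor did the pore-former gene Bak1 (-0.17, adjusted p = 0.10). A further probe set of Bad fell, by 0.75 (adjusted p = 1.7e-06), with -0.76 in the chamber, -0.95 in experiment 1 and -0.54 in experiment 2. For Bcl2l11 the further sets changed by 0.09 and 0.04.

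Of 43 genes of caspases and the death machinery 37 were tested, and for the hypoxia mean 7 were called higher and 7 lower (12.6% and 19.5% of all genes; median 0.04, against 0.01 over all genes). The executioner caspase gene Casp6 rose by 0.79 ± 0.07 (adjusted p = 2.0e-08) and the translation repressor gene Pdcd4 by 0.71, with Xiap at 0.32 (further sets at -0.02 and 0.09) and Pdcd6ip at 0.31 (a further set at 0.0038). Fadd, the adaptor that links death receptors to caspase 8, fell by 0.61 (adjusted p = 7.3e-08), Birc5, the survivin gene of dividing cells, by 0.50, the co-chaperone gene Bag1 by 0.48 and the mitochondrial flavoprotein gene Aifm1 by 0.45. At 200 µM CoCl2 9 were called higher and 8 lower (19.7% and 22.3% of all genes; median 0.18, against 0.11 over all genes). There the co-chaperone gene Bag3 rose by 1.71 (adjusted p = 8.1e-08), while Birc5 fell by 3.34 (adjusted p = 1.2e-14), Fadd by 1.48 and the cytochrome c gene Cycs by 1.21. Pdcd6ip (0.69) rose as well, with a further set at -0.55, as did Pdcd4 (0.62) and Bcap31 (0.62), and Pawr fell by 0.86.

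Of 47 mitophagy and autophagy genes, the machinery that Bnip3 docks to, 34 were tested. For the hypoxia mean 7 were called higher and 3 lower (12.6% and 19.5% of all genes; median 0.04, against 0.01 over all genes). Gabarapl1, an LC3-type gene, rose by 0.56 ± 0.10 (adjusted p = 6.3e-05), the conjugation gene Atg16l1 by 0.37, the lipid kinase gene Pik3c3 by 0.35 and the receptor gene Nbr1 by 0.29 (a further set by 0.11). The mitochondrial prohibitin gene Phb2 fell by 0.42, Atg5 by 0.22 and Uvrag by 0.15. At 200 µM CoCl2 13 were called higher and 6 lower (19.7% and 22.3% of all genes; median 0.25, against 0.11 over all genes), and at 100 µM 11 higher and 5 lower (17.6% and 20.7% of all genes). The autophagy receptor gene Sqstm1 rose by 2.92 ± 0.14 at 200 µM (adjusted p = 6.2e-13), Gabarapl1 by 2.35, Atg12 by 1.25 and Nbr1 by 1.24, while the porin gene Vdac2 fell by 1.00, Uvrag by 0.50, the fission gene Dnm1l by 0.47 and Atg5 by 0.46. In hypoxia Sqstm1 changed by -0.10 in the chamber, 0.55 in experiment 1 and -0.13 in experiment 2, and was called in experiment 1 alone of the 3 (adjusted p = 0.0041).

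HIF targets rose together with Bnip3 in every set. Of the 37 tested, 28 were called higher in the chamber (7.96% of all genes), 26 in experiment 1 (7.57%) and 27 in experiment 2 (7.55%). With CoCl2 30 were called higher at 100 µM (17.6% of all genes) and 31 at 200 µM (19.7%). Called lower was 1, Cited2 at 200 µM (-0.45, adjusted p = 0.049), where 22.3% of all genes were. The median change of these 37 was 1.31 in the chamber, 1.24 in experiment 1, 1.59 in experiment 2, 1.33 at 100 µM and 1.13 at 200 µM.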

How the data were processed

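RNA of 21 B16-F10 cultures in 9 groups was hybridised to Affymetrix U74Av2 arrays. The authors deposited 1 log2 value per probe set and array, made with GCOS 1.2 and RMA per the submitters' processing notes. The sources used here do not give the RMA version or say if all arrays shared a run. Of 12488 probe sets, 10833 with 1 gene symbol were kept, 396 annotated to several genes were left out, and the set with the highest mean represented a gene, which gave 8251 genes. Values were used as deposited, and no detection calls were used.

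A linear model with a mean for each of the 9 groups was fitted to the arrays in limma 3.58.1 (R 4.3.3; 12 residual degrees of freedom, 20.9 after moderation). All p-values are two-sided and Benjamini-Hochberg adjusted over all genes, and calls are at an adjusted p under 0.05. The fit was tested on simulated data. A separate fit over all probe sets covered each set of the members. The members and the gene lists were chosen with earlier results of these data known. Every member was named, and of each list at most the 4 highest and 4 lowest called genes for the hypoxia mean or 200 µM CoCl2. For the gap between experiments 1 and 2 the 4 lowest and 4 highest HIF targets were named, and for likeness to Bnip3 5 genes. Family genes that did not pass, Cited2, the leukocyte markers, and Sqstm1 in single hypoxia sets were named after their values were seen. Same-numbered samples were not treated as paired: the correlation of their deviations ran from -0.37 to 0.235 over 12 pairs, 7 of them above 0. Alternatives were other scalings, a filter on low genes, other treatments of probe sets, a variance trend, array weights, the replicate block, fewer samples, a quality covariate, and each sample left out. Those added after the data were seen were a hypoxia mean without experiment 1 and the mean of all 8 controls.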

Additional observations from a re-analysis of the deposited data

Results flagged for a closer look

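The rise of Bnip3 differed between experiments 1 and 2 by -1.62 on the log2 scale, known when the gene was chosen and given as a value with no test. Among the HIF targets, the rise of Ddit4 differed between the same experiments by -1.36 (limma, adjusted p = 0.0043). The rise of Bnip3 with CoCl2 exceeded that in hypoxia by 0.71, and by 0.21 with experiment 1 out of the hypoxia mean. Both values are given with no test, because the weaker rise of experiment 1 was known. The change of Bcl2l1 was lower with CoCl2 than in hypoxia by a difference of -0.68 (adjusted p = 0.00012), and by -0.21 (adjusted p = 0.15) with the mean of its probe sets. The 98868_at probe set of Bcl2 changed less in the chamber than in the incubator (-0.95, adjusted p = 0.013), and its difference between CoCl2 and hypoxia was -1.71 (adjusted p = 1.6e-07). For the 98869_g_at set of Bcl2 that difference was -0.52 (adjusted p = 0.0097). With 2 or 3 samples in a group, no sample was examined as an outlier.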

How the results depend on the processing

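Of 1173 alternative values for the members, 1113 kept their direction and call, 18 lost a call, 16 gained one, 9 moved with no test or as a count, and 17 changed sign. The rises of Bnip3 against own controls and the falls of Bid in the 3 hypoxia sets kept their calls in every alternative run. The difference in the rise of Bnip3 between chamber and incubator was 0.50 with array weights and 0.56 with only the samples of the sets compared. Leaving out single samples gave 0.40 to 0.72. These values of Bnip3 are given with no test, because the incubator mean contains experiment 1. Its difference between CoCl2 and hypoxia was 0.55 to 0.87 with single samples left out and 0.21 without experiment 1. Its difference between experiments 1 and 2 was -0.77 against all 8 controls. Its dose difference ran from -0.45 to 0.12 with single samples left out.

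Values that changed sign were all uncalled. For Bcl2 the mean of its probe sets gave -0.11 at 100 µM, -0.18 at 200 µM and -0.38 for chamber minus incubator, where median centring gave -0.014. With the Actb 3′ minus 5′ covariate Bcl2 changed by -0.091 at 100 µM and by 0.28 between the doses. With single samples left out, Bcl2 ran from -0.13 to 0.19 at 200 µM, -0.021 to 0.053 for chamber minus incubator and -0.26 to 0.052 between the doses. Bid ran from -0.13 to 0.024 between experiments 1 and 2 (0.0099 with array weights) and -0.019 to 0.14 for CoCl2 minus hypoxia. Bcl2l1 changed by -0.010 at 100 µM against all 8 controls and by 0.068 at 200 µM with the mean of its sets. The cause of these shifts was not tested.

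The count of members called was 5 in experiment 2 against all 8 controls. It was 1 for chamber against incubator with array weights or only the sets compared, which is Bnip3 with experiment 1 in its incubator mean. With single samples left out it ran from 0 to 1 between the doses and from 1 to 3 between CoCl2 and hypoxia (Bnip3 included), where it was 1 without experiment 1. With the replicate block Bcl2 lost its call in the chamber (0.43, adjusted p = 0.060) and in experiment 1 (0.41, adjusted p = 0.090), and no other call of a member against own controls was lost. With only the experiment 3 samples the Mcl1 change at 200 µM was -0.44 (adjusted p = 0.097). With the mean of its sets Bcl2l1 in experiment 1 was 0.25 (adjusted p = 0.080). Where a group was left with 1 sample, that sample was assumed to vary like the other groups. The planned comparison of Bnip3l could not be run, since it has no single-gene probe set. Single arrays were left out on representative probe sets only.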
